A study of Mus musculus with 157 samples.

Results

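The histone genes of the mouse Hist1, Hist2, Hist3 and Hist4 clusters were followed through an atlas of m6A, the N6-methyladenosine mark on RNA, in blood cells. Members were all rows whose gene symbol begins with Hist1h, Hist2h, Hist3h or Hist4h, and no measured value entered the choice. There were 70 such rows of 36102 in the tables of counts: 6 genes of the linker histone H1, 20 of H2A, 19 of H2B, 12 of H3 and 13 of H4. The ratios of new RNA listed 63 of them among 17824 genes, and the decay course listed 22 of 11733 in long-term stem cells and 28 of 11438 in megakaryocyte progenitors. By cluster, 56 members belong to Hist1 on chromosome 13, 10 to Hist2 on chromosome 3, 3 to Hist3 on chromosome 11 and 1 to Hist4 on chromosome 6. RefSeq calls 67 of them protein coding and 3 pseudogenes (Hist1h2aj, Hist1h2al and Hist3h2bb-ps).

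The atlas comprised 32 input RNA libraries and 32 libraries of RNA pulled down with an anti-m6A antibody (IP), each with 2 libraries in each of 16 untreated wild-type populations. These were LT.HSC and ST.HSC (long-term and short-term haematopoietic stem cells), the progenitors MPP, LMPP, CLP, CMP, GMP, MEP and MkP, and the populations Erythroid, B_cell, CD4, CD8, DC, Monocyte and Neutrophil. A further set compared cells of genotype Mettl3 -/- with wild type in 7 types (MkP, MEP, GMP, CMP, MPP, ST.HSC and LT.HSC), with 2 input and 2 IP libraries per genotype and type. LT.HSC of genotype Igf2bp2 -/- were compared with wild type in 2 input libraries each. Wild-type cells labelled with 4-thiouridine gave new RNA in 6 types after 3 h, and followed labelled RNA through 7 chase times in MkP and LT.HSC after 24 h of labelling. The labels name no strain, age, sorting markers or Cre driver, nor the part of either gene that was deleted. Replicates are not said to be separate animals, and the p-values therefore reflect the spread of these libraries alone, possibly technical.

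Core histones H2A, H2B, H3 and H4 form the spool around which DNA is wound, and H1 binds the linker DNA between spools. Genes of this class are copied many times in clusters, have no introns, and are transcribed mainly in S phase, when new DNA must be packaged. Most of their mRNAs end in a stem-loop bound by the protein SLBP in place of a poly-A tail, although some members also make polyadenylated transcripts in differentiated cells. Replacement variants such as H2A.Z and H3.3 are encoded elsewhere and are made throughout the cell cycle. The labels describe total RNA and a standard Illumina library, and whether poly-A RNA was selected is not given. A low level of a member can therefore reflect little RNA or RNA without a tail, and these cannot be told apart here.

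The stretches directly upstream of 9 members are shown because these genes carry the levels and differences described here. They also show how alike some copies are upstream of the start. Each is the 120 bases before the annotated start, 5′ to 3′ on the gene's own strand, from the RefSeq promoter table of GRCm38.p6. Capitals mark TATAAA (the TATA box), CCAAT (the CCAAT box) and ATTTGCAT (the octamer), each searched on both strands, so that ATTGG marks a CCAAT box on the opposite strand.
Hist1h1b: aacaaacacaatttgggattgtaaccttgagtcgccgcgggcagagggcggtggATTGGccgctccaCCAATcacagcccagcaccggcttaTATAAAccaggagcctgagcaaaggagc
Hist1h2ap: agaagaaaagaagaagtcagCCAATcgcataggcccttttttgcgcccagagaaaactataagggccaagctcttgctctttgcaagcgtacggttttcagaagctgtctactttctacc
Hist1h2ao: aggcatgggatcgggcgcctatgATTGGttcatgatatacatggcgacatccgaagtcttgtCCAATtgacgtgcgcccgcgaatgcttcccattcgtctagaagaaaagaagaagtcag
Hist1h2br: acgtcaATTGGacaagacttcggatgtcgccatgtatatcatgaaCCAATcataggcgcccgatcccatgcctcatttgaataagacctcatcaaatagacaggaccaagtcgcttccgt
Hist1h2ab: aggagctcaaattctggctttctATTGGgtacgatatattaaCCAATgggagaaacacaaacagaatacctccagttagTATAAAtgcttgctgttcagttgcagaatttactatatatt
Hist1h2ae: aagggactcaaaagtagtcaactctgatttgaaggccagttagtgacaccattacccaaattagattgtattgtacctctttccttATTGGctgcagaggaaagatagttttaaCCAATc
Hist1h2bg: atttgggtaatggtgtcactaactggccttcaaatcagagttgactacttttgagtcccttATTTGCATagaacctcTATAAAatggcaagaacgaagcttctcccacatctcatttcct
Hist2h3c2: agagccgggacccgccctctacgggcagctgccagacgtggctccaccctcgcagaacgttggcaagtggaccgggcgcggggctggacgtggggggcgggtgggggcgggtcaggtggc
Hist1h4d: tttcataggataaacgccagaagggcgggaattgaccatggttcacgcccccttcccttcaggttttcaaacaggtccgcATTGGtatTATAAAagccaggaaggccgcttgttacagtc

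These stretches lie at chr13:21780626-21780745 (- strand) for Hist1h1b, chr13:21833476-21833595 (- strand) for Hist1h2ap, chr13:21810247-21810366 (+ strand) for Hist1h2ao and chr13:21833623-21833742 (+ strand) for Hist1h2br. Those of Hist1h2ab, Hist1h2ae and Hist1h2bg lie at chr13:23750968-23751087 (+ strand), chr13:23571221-23571340 (- strand) and chr13:23571280-23571399 (+ strand). Those of Hist2h3c2 and Hist1h4d lie at chr3:96239128-96239247 (- strand) and chr13:23581448-23581567 (+ strand). Hist1h2ap faces Hist1h2br head to head with 267 bases between their starts, and Hist1h2ae faces Hist1h2bg with 179 bases between, so that the printed stretches of the latter pair overlap on opposite strands. The stretch of Hist1h2ao ends with the letters that begin the stretch of Hist1h2ap.

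A window of 300 bases, from 250 before to 50 after the start, was on hand for 61 members and for 32851 genes in all. CCAAT stood in 52 of the 61 (85.2%), against 37.4% of all windows. It was in every window of H1 (6), H2A (18), H2B (15) and H3 (10), but in only 3 of 12 H4 windows. TATAAA stood in 57.4% of members and 13.6% of all windows, and in Hist1h1b and Hist1h4d it began 28 and 32 bases before the start. ATTTGCAT stood in 7 of 18 H2A and 6 of 15 H2B windows, in 0 windows of H1, H3 and H4, and in 1.74% of all windows. A match of these letters is a description of the window and not evidence of binding.

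Near-identical copies can limit how reads are assigned. Only the bases upstream of the start were compared here, not the transcripts that give the reads. Within the 250 bases before the start, Hist1h2bq and Hist1h2br shared 1 unbroken run of 250 bases, Hist1h4m and Hist1h4n of 249, Hist2h3c1 and Hist2h3c2 of 231, Hist2h2aa1 and Hist2h2aa2 of 169, and Hist1h2ao and Hist1h2ap of 150. The symbol Hist1h2ap matched a pair of RefSeq genes through its synonyms, and its coordinates (chromosome 13, from 21833024 to 21833475) are those of H2ac24. Values of these genes are those of the deposited symbol, and how the authors' counting split reads among copies is uncertain.

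The atlas inputs held 8.23 to 21.5 M reads and the atlas IP libraries 10.8 to 24.6 M. Depth was 3.42 to 20.2 M for the Mettl3 inputs, 0.819 to 22.9 M for their IP libraries and 4.68 to 19.98 M for the Igf2bp2 set. Marker sums were highest in a population of the matching label for the stem cell, GMP, erythroid, megakaryocyte, B cell, T cell and DC lists, the last with B_cell (40505 RPM, reads scaled to a common library total) close to DC (40937). The exceptions were the 7 neutrophil markers, which summed to 235714 RPM in the libraries labelled Monocyte and 95598 in those labelled Neutrophil, and the 3 lymphoid progenitor markers, which were highest in MPP. The 5 monocyte markers were also highest in the libraries labelled Monocyte (149547 against 71565 in Neutrophil). The input comparisons were therefore also run without the Monocyte libraries, and IP minus input was not. A fixed size factor made 1 read worth 0.412 to 11.6 normalised units across the atlas inputs, so levels are given as RPM from the recovered reads, while tests ran on the deposited scale.

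Most histone reads were listed under a single H2A symbol. Over the 32 atlas inputs 1061957 reads fell on members, 787558 of them (74.2%) on Hist1h2ap. Hist1h2ao, which shares an upstream run with it, had 254. How reads were split among copies is uncertain, which also limits the ratio to Hist1h2br below. Without Hist1h2ap, H2A held 37.6% of the remaining reads, H4 22%, H2B 18.5%, H1 17.6% and H3 4.38%. In RPM per kilobase, given for genes with a short RefSeq transcript, Hist1h2ap stood at 3626, the H4 gene Hist1h4d at 258, and the H2A genes Hist3h2a, Hist2h2aa1 and Hist1h2ae at 132, 91.4 and 89.9. The H1 gene Hist1h1b, which encodes H1.5, stood at 62.6 on this scale. The neighbour that shares the promoter region with Hist1h2ap, the H2B gene Hist1h2br, had a mean normalised count of 93.5 against 30642, a ratio of 327.6 in read counts not divided by length. No other head-to-head pair with reads in both genes had a ratio above 19.3.

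Of the other members, 32 had a mean normalised count of at least 50, counting Hist1h2ap, and 12 were below 10. Hist1h2ba, a testis form of H2B, had 0 reads in the 32 inputs, its partner Hist1h2aa had 9, and the testis linker gene Hist1h1t had 5. In all, 16 members had a mean of at least 1 RPM in every type, and 7 were below 1 in every type.

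Mean histone RPM ran from 450.2 in CD4 to 4881 in B_cell. Summed over members, the libraries of CD4 held 411 and 490 RPM, ST.HSC 452 and 456, and DC 498 and 551. CD8 held 1044 and 965, LT.HSC 1003 and 1342, Monocyte 1564 and 1312, and Neutrophil 1778 and 1465. The middle of the order comprised Erythroid (2175 and 1856), MPP (2249 and 1917), GMP (3053 and 2242), CMP (3795 and 2085) and MEP (2950 and 2953). The top comprised CLP (3254 and 4588), MkP (1699 and 6445), LMPP (3982 and 4217) and B_cell (3038 and 6723). Between neighbours in this order, both libraries of 1 type lay below both of the next only from ST.HSC to DC, DC to CD8, Neutrophil to Erythroid and MEP to CLP. In bulk libraries fewer cells in S phase and less histone RNA per cell cannot be told apart.

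The share taken by Hist1h2ap followed the same divide. It was 30.6% of histone reads in DC, 32.7% in CD4, 40.1% in CD8 and 46.6% in ST.HSC, and 64.8% to 89.1% in the other 12 types, with MkP highest. With Hist1h2ap left out, LMPP (1449 RPM), B_cell (1439) and CLP (1258) stood highest and ST.HSC (242) lowest. MkP, among the top types with Hist1h2ap, stood at 388 without it, close to LT.HSC (369). The MkP libraries held 1472 and 5896 RPM of Hist1h2ap, a wide spread within 1 type.

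Among the 32 members with a mean of at least 50, RPM was highest in B_cell for 11, LMPP for 9, CLP for 3 and CMP for 3. A further 2 were highest in Neutrophil and 1 each in GMP, MkP, Erythroid and CD8. On the lower side, 11 of the 32 were lowest in ST.HSC and 9 in Monocyte. By the F test of limma among the 16 types, 61 of 66 members tested passed the Benjamini-Hochberg threshold of 0.05, where 92.6% of all genes did. Variation among types was thus as common among members as among genes at large.

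**Figure D1:**
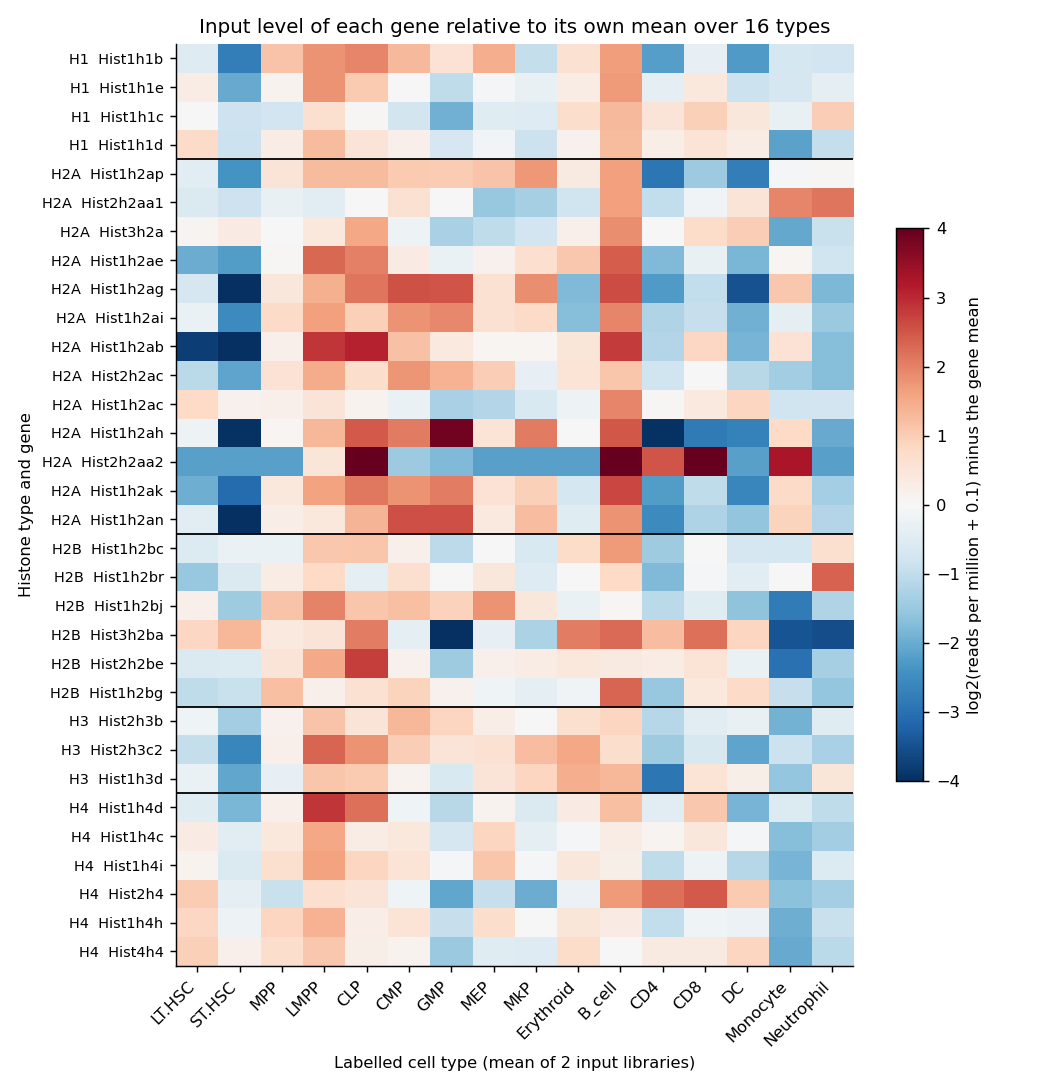
Input level of each of the 32 histone genes with a mean of at least 50, relative to its own mean over the 16 types, with genes in rows ordered by histone type and labelled cell types in columns. LMPP, CLP and B_cell columns hold most high values, and the ST.HSC column most low ones.

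Among linker genes, Hist1h1b and Hist1h1e (H1.4) followed the lymphoid and progenitor pattern, while Hist1h1c (H1.2) was highest in B_cell and several other mature populations. Hist1h1b stood at 107 and 144 RPM in CLP, 102 and 122 in LMPP, 115 and 60.0 in MEP, and only 5.22 and 4.02 in ST.HSC and 5.47 and 8.39 in CD4. Hist1h1c stood at 47.9 and 42.3 in B_cell, 35.5 and 37.0 in Neutrophil, 35.1 and 35.1 in CD8 and 34.8 and 24.4 in Erythroid, against 3.5 and 5.83 in GMP. In CD4 it stood at 24.7 and 27.2, and in LMPP at 18.8 and 38.0. Monocyte, at 15.1 and 14.3, was below LMPP and CLP (18.1 and 19.1) in both libraries. Over the 16 type means, the rank correlation with the summed S phase list was 0.55 for Hist1h1b and −0.21 for Hist1h1c on the normalised scale, and 0.38 and −0.40 in RPM.

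H2A members went different ways. Hist1h2ae ran at 169 and 138 RPM in LMPP and 105 and 229 in B_cell, and at 4.85 and 10.5 in LT.HSC. Hist2h2aa1 of the Hist2 cluster was highest in the myeloid populations, at 165 and 160 in Neutrophil and 145 and 142 in Monocyte, against 15.1 and 10.8 in MEP. Hist3h2a of the Hist3 cluster was highest in B_cell (281 and 108) and CLP (171 and 139), stood at 107 and 104 in DC, and was lowest in Monocyte (15.9 and 9.79). The near-identical Hist2h2aa2 was listed at 0 in both libraries of 8 types, and in 6 of the other 8 only 1 library had a read, as in CLP (13.95 and 0).

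The H2B gene Hist1h2bc had 98.2 and 278 RPM in B_cell, 137 and 105 in LMPP, 103 and 85.7 in Erythroid and 93.8 and 83.9 in Neutrophil, against 22.1 and 20.5 in CD4. Hist1h2bj was highest in LMPP (10.4 and 28.1) and MEP (16.0 and 17.7) and lowest in Monocyte (0.479 and 0.714), and had the closest rank relation to the S phase sum among the 32 members, at 0.84 over normalised type means and 0.73 over RPM. Its divergent H2A partner is Hist1h2ag. Over 9 head-to-head H2A and H2B pairs the rank correlation of the type means had a median of 0.68 (0.44 to 0.86), and over 297 other pairs of an H2A with an H2B gene it was 0.58 (−0.37 to 0.92). These correlations rest on 16 shared type means, and the ranges of the groups overlap.

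H3 genes held the fewest reads. Hist2h3b was highest in CMP (29.97 and 6.36 RPM) and LMPP (14.9 and 16.5), Hist2h3c2 in LMPP (17.5 and 9.07), and Hist1h3d in Erythroid (7.51 and 5.68). The H4 gene Hist1h4d, at 258 RPM per kilobase against 24.3 for the next H4 gene with a short transcript, Hist1h4c, had 310 and 661 in LMPP, 236 and 370 in CLP and 168 and 109 RPM in CD8, against 17.2 and 19.4 in DC. Hist2h4 was instead highest in CD8 (14.8 and 16.6) and CD4 (15.3 and 11.1), and lowest in GMP (0.725 and 0.432). Its rank relation to the S phase sum was −0.53 over normalised type means, the lowest of the 32 on that scale, and −0.42 over RPM, where Hist2h2aa1 was lowest (−0.56).

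Over 58 members with a mean of at least 10, the rank correlation of normalised type means with the S phase list of 24 replication genes had a median of 0.49 (−0.53 to 0.88), where all genes had −0.10. By RPM these medians were 0.29 and 0.06. By histone type the normalised medians were 0.33 for H1, 0.52 for H2A, 0.51 for H2B, 0.47 for H3 and 0.37 for H4. The S phase sum itself was highest in MEP (6914 RPM) and lowest in Monocyte (266). The points are 16 type means that share libraries and scaling.

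LT.HSC, largely quiescent cells in the adult, had lower histone RNA than the mean of the other stem and progenitor types, though ST.HSC was lower still in summed RPM. Against the mean of the other 8 types, 29 of 66 members were lower (16.2% of all genes) and 0 were higher (24.2% of all genes). The members' median log2 difference was −1.40, against 0.24 for all genes tested, and 6 of 66 lay above the median gene. By type, 11 of 19 H2A, 8 of 17 H2B, 6 of 12 H3, 3 of 13 H4 and 1 of 5 H1 genes were lower. Differences are on the log2(normalised value + 1) scale, which understates changes of low genes.

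The H2A gene Hist1h2ab had normalised counts of 1.84 and 1.24 in LT.HSC, from 4 and 3 reads, against 0 to 419 (median 71.7) in the other 16 libraries. The 2 stem cell libraries lay below most others but not below ST.HSC, where it was listed at 0 in 1 library. The log2 difference was −4.55 (SE 0.65, limma adjusted p = 1.3e-05). Hist1h2ae stood at 36.4 and 71.8 against 51.1 to 2067 (median 479.6), so the groups overlapped at their edge, with a difference of −3.01 (SE 0.54, limma adjusted p = 0.000167). The H2B gene Hist1h2bg, the divergent partner of Hist1h2ae, had 18.0 and 0 against 7.2 to 66.6 and differed by −2.89 (SE 0.68). Hist1h2ap had 4870 and 6526 against 1728 to 87102 and differed by −1.79 (SE 0.46, limma adjusted p = 0.00414). Both LT.HSC libraries were above those of ST.HSC for this gene and below the other 14.

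Of the remaining types, the linker gene Hist1h1b had 189 and 136 in LT.HSC against 36.4 to 1603 (median 827) and fell by 1.66 on the log2 scale (SE 0.40). The H4 gene Hist1h4d had 333 and 343 against 151 to 5291 and fell by 1.29 (SE 0.42). The H1 genes Hist1h1c (−0.06), Hist1h1d (0.02) and Hist1h1e (−0.29) did not pass. Only Hist1h2bp (2.31 and 2.89 against 4.14 to 55.9) and Hist1h3f (listed at 0 in both, against 1.38 to 31.3) had both LT.HSC libraries outside the range of the other 16, also in RPM. Across all genes the share with LT.HSC wholly below was 1.98%, and 0.343% in RPM. The share wholly above was 6.93%, and 12.3% in RPM, where 0 members were. Hist1h2bp and Hist1h3f were picked out for this property.

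The call rested partly on single libraries, since 15 members were lower without LT.HSC 1 and 14 without LT.HSC 2. Scaling to total reads moved the median of all genes to 0.89 and that of members to −0.88, again with 6 members above the median gene. Then 21 members were lower (1154 of 17442 genes) and 4 higher (7877 of 17442 genes). Under both scalings most members lay well below the typical gene.

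On the deposited scale Erythroid cells showed the opposite. Against the mean of the other 15 types, 42 of 66 members were higher (22.9% of all genes) and 0 were lower (25.1% of all genes). The median log2 difference was 1.84 for members and −0.17 for all genes. All 5 H1 genes tested were higher, with 14 of 17 H2B, 9 of 12 H3, 8 of 13 H4 and 6 of 19 H2A genes. The 7 erythroid markers, mainly globins, summed to 487439 RPM in these libraries, and their part in this result through the scaling was not tested.

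The H2B gene Hist3h2ba had 423 and 456 normalised counts in Erythroid against 0 to 340 (median 32.3) in the other 30 libraries. Both erythroid libraries lay above all others, and the log2 difference was 3.99 (SE 0.62, limma adjusted p = 1e-05). The H3 gene Hist2h3c2 had 297 and 311 against 1.03 to 215, a difference of 3.24 (SE 0.53), and Hist1h3d had 275 and 242 against 0 to 129, a difference of 3.21 (SE 0.62). Both were above every other library. The H4 gene Hist4h4 had 199 and 234.5 against 17.5 to 80.7 and was higher by 2.34 (SE 0.34). Hist1h2ae (2484 and 2727 against 36.4 to 4924) rose by 2.78 (SE 0.52) with overlapping groups.

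In all, 13 members had both erythroid libraries above the other 30 on the normalised scale, where 6.04% of all genes did, but 0 did so in RPM, where 1.31% did. Scaled to total reads, 9 members were higher (1186 of 17442 genes) and 2 lower (10299 of 17442 genes). The members' median was 0.37, against −1.37 for all genes. Then 62 of 65 members lay above the median gene. The order against the typical gene was thus kept, while the sign of a single gene depended on the scaling. Among the named members, Hist1h2bj, Hist1h4c, Hist2h4 and Hist1h2ac changed sign with the scaling. Over all members, the erythroid mean was above that of the other libraries for 53 and below it for 16 on the normalised scale. In RPM it was above for 25 and below for 44. Without Erythroid 1 the count of higher members was 27.

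Stem and progenitor types together did not stand above mature leukocytes. Over 9 types against 6 (18 libraries against 12), 8 of 66 members were higher (30.4% of all genes) and 17 lower (39.5% of all genes). Both shares were below those of all genes, and the members' median of 0.03 lay near that of all genes, −0.18. For 0 of 70 members were the groups free of overlap, where 0.27% of all genes lay wholly lower and 0.19% wholly higher. With shares this small, 0 members is no result about histone genes.

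The members lower in stem and progenitor types were led by genes of the Hist2 cluster and by Hist1h1c. Hist1h1c had 53.2 to 304 (median 125) against 244 to 1617 (median 562), with little overlap, a difference of −2.06 (SE 0.14). Hist2h2aa1 had 52.5 to 1314 (median 207) against 193 to 16044 (median 1238) and differed by −2.30 (SE 0.28), and its copy Hist2h2aa2 by −3.10 (SE 0.82, limma adjusted p = 0.00183). The H4 gene Hist2h4 differed by −2.13 (SE 0.26), from 4.37 to 76.1 against 16.2 to 216. Hist1h2ac differed by −1.29 (SE 0.20). For each of these the ranges overlapped.

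On the higher side, Hist1h2bj had 14.5 to 225 (median 119) against 12.9 to 134 (median 37.3), a difference of 1.18 (SE 0.19, limma adjusted p = 1e-05). The H2A gene Hist1h2ah was higher by 1.62 (SE 0.36, limma adjusted p = 0.000388), with medians of 24.6 and 3.61. Hist1h2ap was higher by 0.63 (SE 0.23, limma adjusted p = 0.0181), with 1728 to 87102 against 1367 to 108902 and wide overlap. Without the Monocyte libraries 16 members were higher (5045 of 16925 genes). Scaled to total reads 27 of 65 were higher (8965 of 17442 genes) and 7 lower (3443 of 17442 genes). The all-gene median then moved to 0.54 and that of members to 0.66, and 36 of 65 lay above the median gene. The count of higher members was 4 without DC 2 or Monocyte 2 and 5 without CD4 2 or MkP 2.

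**Figure D2:**
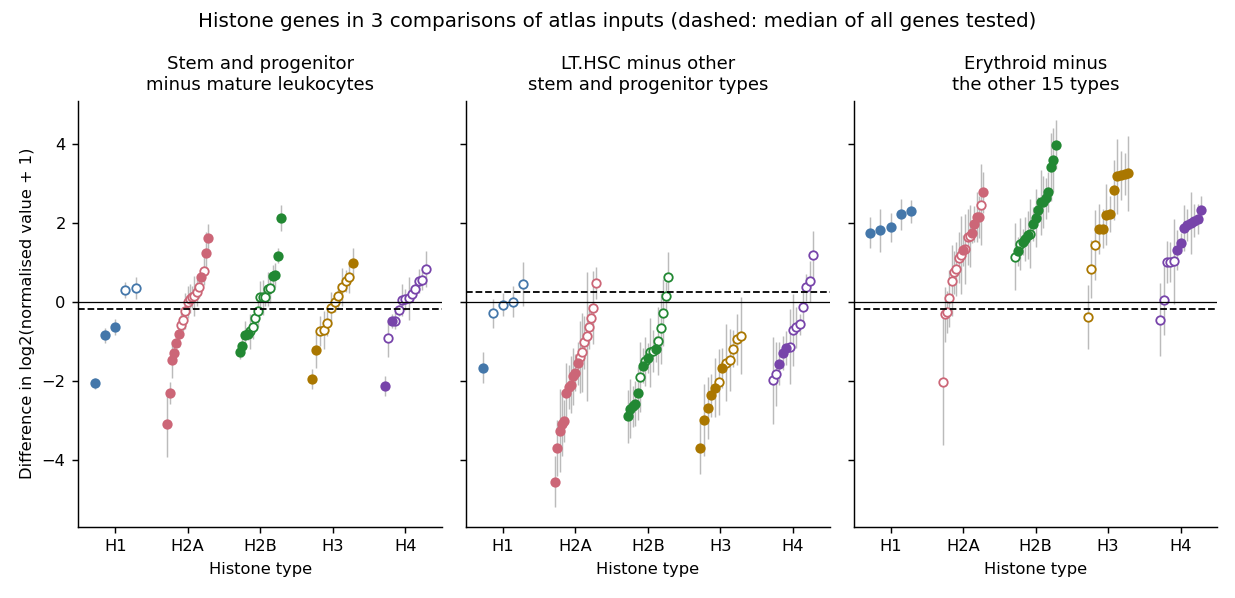
Difference in log2(normalised value + 1) of each histone gene tested, with its standard error, by histone type in 3 comparisons of atlas inputs. Filled points passed the limma threshold and the dashed line is the median of all genes, below which most points lie for LT.HSC (median −1.40) and above which most lie for Erythroid (median 1.84).

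Other genes of replication and histone supply were counted on the deposited scale, without a test against the members or all genes. Of 24 S phase genes, 19 were lower in LT.HSC than in the other stem and progenitor types and 1 (Cdc45) higher, and 24 were higher in Erythroid. In RPM this order did not hold for each of them: E2f1 stood at 8.45 in Erythroid, below 11 of the other 15 types. Mcm3 (71.8), Mcm6 (98.3), Gins2 (56.7) and Pola1 (37.6) were lower in Erythroid than in LT.HSC (123.8, 118.1, 146.9 and 78.0). Others, such as Rrm2 (551), were highest in Erythroid. List counts were not computed after scaling to total reads. All 8 mitosis genes were lower in LT.HSC and higher in Erythroid. Of 11 histone chaperones, which carry histones to DNA, 8 were lower in LT.HSC, among them Nasp (−1.16) and Asf1b (−2.10). In Erythroid 10 were higher on this scale, with Nasp at 2.06. In RPM Nasp stood at 58.9 there, below MPP (65.9), LMPP (77.4), CMP (65.2) and MEP (101.5), while Asf1b (448) was highest in Erythroid. Of 15 processing factors measured, 5 were lower in LT.HSC, led by Slbp (−1.54), which binds the stem-loop. In Erythroid 8 were higher, led by Slbp (3.23), and 1 lower, the 3′ cleavage nuclease gene Cpsf3 (−0.51).

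Replacement variants went both ways in both comparisons. In LT.HSC 7 of 11 were lower, including the H2A.Z gene H2afz (−2.11), and 2 were higher, the linker variants H1f0 (0.88) and H1fx (2.86). In Erythroid 4 were higher, including the H3.3 gene H3f3a (2.42), and 2 lower, H2afy (−2.45), which encodes macroH2A, and H1fx (−1.64). Between stem and progenitor types and mature leukocytes, 23 of 24 S phase genes and all 8 mitosis genes were higher, while only 8 of 66 members were. The difference between the lists was not tested. Of the 8 untailed or nuclear RNAs chosen as a reference for poly-A selection, 0 were listed under the symbols searched, so they could not be analysed.

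The m6A signal of a member was taken as log2 IP minus log2 input, set relative to the median gene of the same type. IP and input tables were scaled separately, so levels are only ranks against other genes. Averaged over the 16 types, 42 of 67 members lay above the median gene, with a median of 0.11 (0.05 for all genes). Of 32 with a mean input of at least 50, 16 lay above, with a median of 0.01 (−0.10 for all such genes). Medians by histone type were 0.56 for H1, 0.43 for H2B, 0.27 for H3, 0.05 for H4 and −0.27 for H2A. The members as a group lay close to the median gene.

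Single members departed from this, and among the 32 the H2B genes Hist1h2bg (1.27, above the median gene in 13 of 16 types) and Hist2h2be (1.26, in 15 of 16) were highest, with Hist1h2ab (1.03), Hist1h4i (0.74) and Hist1h1d (0.73). Hist2h2be had 32.9 and 54.5 IP CPM in CD8 against 6.30 and 3.62 input RPM, from 78 and 44 reads, the widest gap of its 16 types. The Hist3 genes Hist3h2ba and Hist3h2a were low, Hist3h2ba at −2.24 (above in 2 types) and Hist3h2a at −1.19 (above in 1, MkP). Hist3h2a had 20.8 and 17.6 IP CPM in LMPP against 67.4 and 74.1 input RPM, so the IP level was lower in both libraries. Hist2h2aa2 was at −1.31, a mean that rests on B_cell (−9.14) and CD8 (−6.61) while 8 types had no input read. Hist1h2ai (−0.91) and Hist1h4h (−0.55) were the next lowest of the 32. Hist1h2ap stood at 0.47, above the median gene in 11 types.

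**Figure D3:**
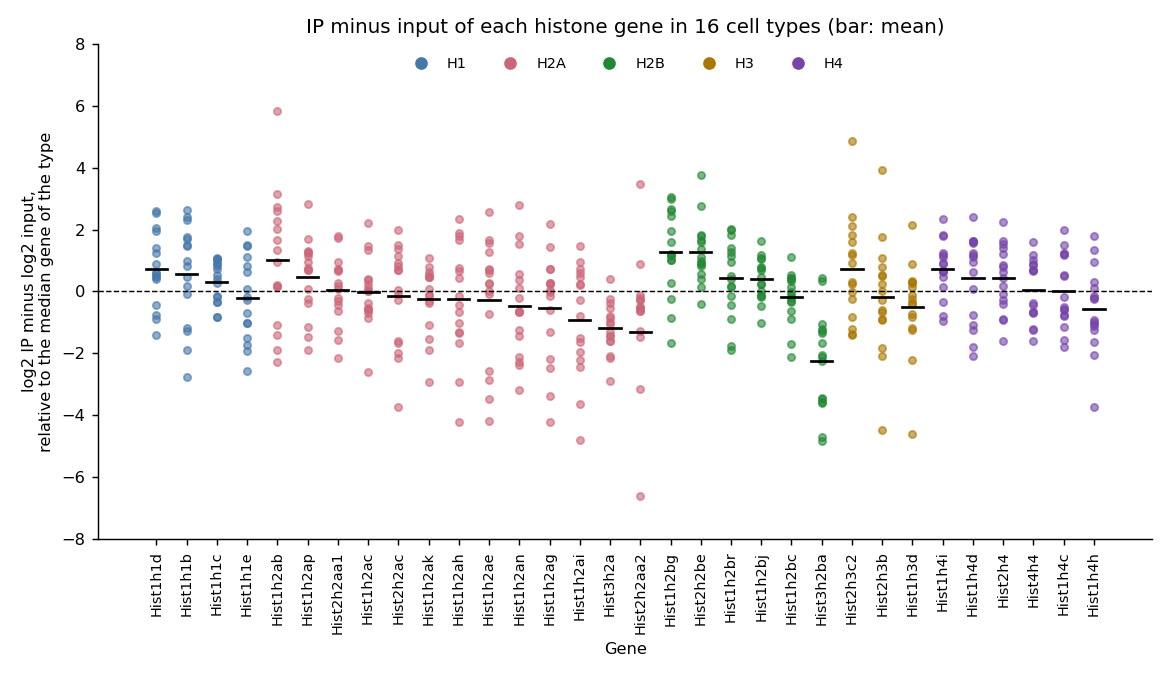
Log2 IP minus log2 input relative to the median gene of the type, for the histone genes with a mean input of at least 50, each point 1 of 16 cell types and each bar the mean. Hist1h2bg and Hist2h2be lie mostly above 0, and Hist3h2a and Hist3h2ba mostly below.

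By cell type the members' median was highest in MkP (1.29), MEP (1.01) and Erythroid (0.86) and lowest in B_cell (−0.92), CD8 (−0.84), Monocyte (−0.83) and LMPP (−0.66). In B_cell 10 of 67 members lay above the median gene, in MkP 57. By the limma F test 16 of 67 members differed among types, against 23.2% of all genes.

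Stem and progenitor types had higher IP minus input than mature leukocytes for 5 of 67 members (3.91% of all genes) and lower for 0 (2.59% of all genes). The members' median difference was 0.38, against 0.01 for all genes. The linker gene Hist1h1b differed most clearly, by 2.06 (SE 0.29, limma adjusted p = 2e-05). Its IP CPM exceeded input RPM in both libraries of ST.HSC (32.9 and 29.6 against 5.22 and 4.02), MEP (343 and 659 against 115 and 60.0) and MkP (60.1 and 134.5 against 10.0 and 22.7). In B_cell the order was reversed, with 31.9 and 41.0 in IP against 89.5 and 117 in input. LMPP, a progenitor, resembled B_cell here (30.9 and 42.2 against 102 and 122).

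The other 4 were Hist1h1e (1.77, SE 0.42, limma adjusted p = 0.00791), Hist1h2ab (2.13, SE 0.58, limma adjusted p = 0.0193), Hist1h2ae (2.26, SE 0.69, limma adjusted p = 0.0383) and Hist1h2ad (2.08, SE 0.64, limma adjusted p = 0.0404), the last with a mean input below 50. Hist1h2ae ran from −4.18 in CD8, where 1 IP library was at 0, to 2.58 in LT.HSC. Hist1h2ap (0.14, limma adjusted p = 0.836) did not pass. Leaving out any of 18 single libraries of 64 lowered the count to 3.

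LT.HSC alone, with 4 libraries against 60, had 2 members higher (1.98% of all genes) and 2 lower (7.97% of all genes). Hist1h2ab was higher by 4.79 (SE 1.14, limma adjusted p = 0.00502), with 164 and 326 IP counts against 4 and 3 input reads, so this value hangs on very few input reads. Hist1h2bc differed by −2.40 (SE 0.48, limma adjusted p = 0.000855), with 51 and 217 IP counts against 645 and 646 input reads. Hist1h2bm (2.71, SE 0.85) and Hist1h4n (−2.76, SE 0.88) were the others. Without IP LT.HSC 2 the counts were 4 higher and 10 lower.

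In the Mettl3 set, where the catalytic subunit of the m6A methyltransferase was targeted, the targeted gene did not separate the labels. Mettl3 stood at 30.3 to 99.4 RPM (median 51.6) in 14 inputs labelled knockout and 10.2 to 586 (median 52.3) in 14 labelled wild type. In IP libraries it stood at 36.3 to 188 and 3.17 to 1613. Reads outside a deleted part would not check the labels, so directions rest on the labels alone.

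Averaged over the 7 types, input RNA of 1 of 60 members was lower in the libraries labelled knockout (2.89% of all genes) and 0 were higher (7.24% of all genes). Members had a median of −0.37, against −0.06 for all genes. The gene was Hist3h2a, with 62.0 to 501 normalised counts (median 157) labelled knockout and 170 to 718 (median 389) labelled wild type. The knockout mean was lower in all 7 types, and in 4 types both knockout libraries lay below both wild-type ones. The difference was −1.09 (SE 0.31, limma adjusted p = 0.0253). With the libraries averaged within genotype and replicate number, leaving 2 against 2, the limma adjusted p was 0.400, and leaving out single libraries gave limma adjusted p = 0.00455 to 0.063.

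Hist1h2bj (26.0 ± 23.2 SD against 60.6 ± 56.8, n = 14) was lower in all 7 types without passing (−1.18, limma adjusted p = 0.0642), and Hist1h1c (47.0 ± 17.3 against 79.2 ± 42.8) in 6 types (−0.64, limma adjusted p = 0.164). Summed over the other 69 genes, input RPM was 89.95 to 375 (median 204) labelled knockout and 167 to 713 (median 275) labelled wild type. The knockout mean was lower in all 7 types, and both knockout libraries lay below both wild-type ones in LT.HSC (125 and 213 against 269 and 245), MPP (247 and 262 against 475 and 281) and MkP (190 and 148 against 370 and 463). The ranges over all types overlapped, and no test was made of this sum. Hist1h2ap showed no such order, at 21139 ± 22194 normalised counts (mean ± SD) labelled knockout against 16608 ± 16703 labelled wild type. In RPM it ran from 227 to 6068 and from 184 to 4982. Within single types 0 members passed by limma. The shares of all genes called higher and lower there were 0.399% and 0.14% in LT.HSC, 0.0133% and 0% in both ST.HSC and MPP, and 0.00665% and 0% in CMP. They were 0% and 0% in GMP, 2.14% and 0.00665% in MEP, and 0.0998% and 0.0133% in MkP. By limma the test of a difference in effect between types called 0 of 60.

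IP counts gave 0 of 66 member calls by edgeR's quasi-likelihood test (0.441% of all genes higher, 0.155% lower). DESeq2 called 1 of 70 members higher (694 of 27163 genes) and 1 lower (205 of 27163 genes). Hist1h2ap had 1212 to 14761 CPM in IP libraries labelled knockout and 30.2 to 7390 in those labelled wild type. In 5 of 7 types both knockout libraries lay above both wild-type ones, the exceptions being GMP and MkP. In LT.HSC, ST.HSC and MEP this order includes a library of uneven composition or low depth, named below. Wild-type libraries numbered 1 were lower than those numbered 2 in every type but MkP, as in CMP (1545 and 5655 CPM) and MPP (1402 and 5310). The share of all genes with such an order is not given. For Hist1h2ap the log2 difference was 1.02 (SE 0.35, edgeR adjusted p = 0.183). In wild-type IP LT.HSC 1 and ST.HSC 1 the 10 most counted genes took 94.2% and 75.8% of counts, and knockout IP MEP 1 held 0.819 M. Without these 3 libraries it was 1.17 (edgeR adjusted p = 0.0016).

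Hist3h2a and Hist1h1c pointed the other way in IP, at −1.39 (edgeR adjusted p = 0.207) and −1.47 (edgeR adjusted p = 0.266), and neither passed. IP minus input differed by genotype for 0 of 66 members and 0 of 17606 genes (percent called 0), with 4 members and 804 genes at an unadjusted p under 0.05. In data simulated with these library sizes 4-fold changes were recovered in 0% of 200 genes and 16-fold changes in 62%. The simulation gave all genes a common dispersion and a mean pooled over types, unlike the real libraries. For LT.HSC in the atlas it also recovered 0% of 4-fold changes, where the real fit called 390 genes higher and 1572 lower. It therefore cannot set which differences in pulldown of a single member were detectable.

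**Figure D4:**
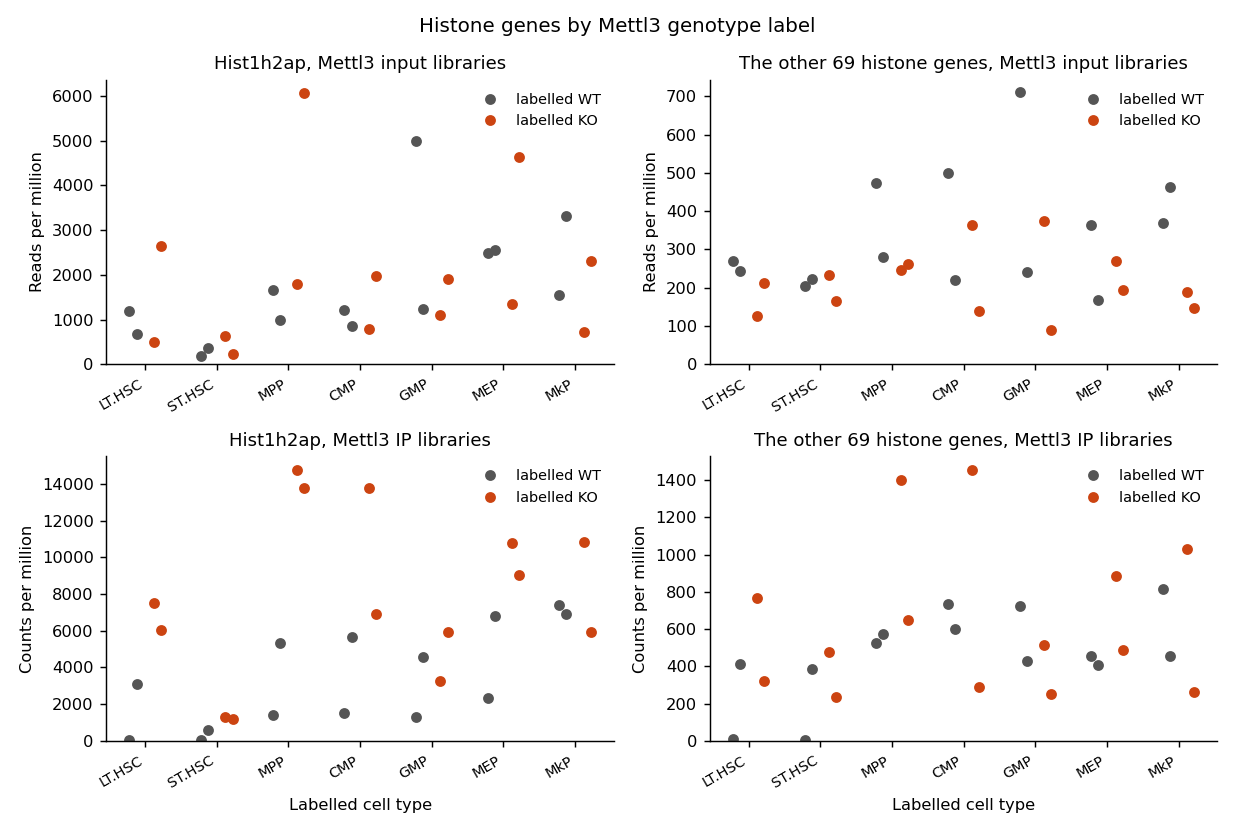
RPM (input) or CPM (IP) of Hist1h2ap and of the other 69 histone genes in the Mettl3 input and IP libraries, each point 1 library, by labelled genotype and type. In the IP panel of Hist1h2ap both knockout points lie above both wild-type points in 5 of 7 types. In LT.HSC, ST.HSC and MEP this order includes a library of uneven composition or low depth. In the Hist1h2ap input panel the labels are mixed. For the other 69 genes in input both knockout points lie below both wild-type points in LT.HSC, MPP and MkP.

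In the Igf2bp2 set the m6A reader gene Igf2bp2 stood at 13 and 12.5 RPM in LT.HSC labelled knockout and at 7.11 and 53.5 in wild type, so it did not separate the labels either. Summed histone reads were 851 and 444 RPM against 597 and 408, and the genotypes overlapped. Without Hist1h2ap the sums were 214 and 205 RPM in knockout and 273 and 227 in wild type, which did not overlap. No test was made of these sums, and with so few libraries per genotype such an order can arise by chance. By edgeR's quasi-likelihood test 0 of 21 members passed and 0 of 12221 genes (percent called 0). DESeq2 called 0 of 48 members and 151 genes in all.

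The linker gene Hist1h1e had 0 and 0 counts in knockout and 205 and 13 in wild type, and the H2B gene Hist1h2bg had 20 and 39 against 5 and 1 (edgeR adjusted p = 0.618 for each). Their ranges did not overlap, but with so few libraries per genotype this can arise by chance. These genes had the lowest unadjusted edgeR p of the members tested. The share of all genes without overlap is not given, so no genotype effect is drawn from it. Hist1h2ap had 2986 and 1554 counts against 6457 and 892 in libraries of 4.68, 6.49, 19.98 and 4.92 M reads (1.28, edgeR adjusted p = 0.843). In data simulated in the same way for this set, 16-fold changes were recovered in 26% of 200 genes, and 4-fold changes in 0%. The same limits of the simulation apply.

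New RNA was read as the deposited T-to-C ratio after 3 h of 4-thiouridine, in percent, with unknown depth. Of 63 members listed, 29 were above 0 in all 12 libraries. The members' median ranged from 0.46% (LT.HSC 2) to 2.36% (GMP 1) and that of all 17824 genes from 0.166% (GMP 2) to 1.26% (MPP 2). Members stood above all genes in both libraries of LT.HSC, CMP, GMP and MEP, in 1 of 2 of MPP and in 0 of 2 of ST.HSC. These medians include genes at 0. Among values above 0 the order turned in LT.HSC 1 (0.918% against 0.92%) and ST.HSC 1 (0.998% against 0.855%). Hist1h2ap ranged from 0.626% in LT.HSC 1 to 2.19% in CMP 2, with a mean of 1.13 ± 0.403% (SD over 12 libraries). Hist1h1b ranged from 0.077% in LT.HSC 2 to 2.74% in MPP 1. Among the 6 types 0 of 60 members differed by limma and 0 of 13909 genes (percent called 0).

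In the chase the authors deposited averages without replicate values, so no test was made. The labels list 2 libraries per chase time in LT.HSC but only 1 in MkP, so each MkP value rests on 1 library. In MkP the median of members with a value was 0.613% at 0.5 h (15 of 28 members), 0.156% at 1 h (14), 0.0682% at 3 h (15) and 0.0697% at 6 h (15). It was 0.0533% at 9 h (8), 0.0637% at 12 h (9) and 0.0269% at 24 h (7). All genes with a value had 0.0697%, 0.0526%, 0.0446% and 0.0165% at the first 4 times, and 0.0157%, 0.0282% and 0.0158% at the last 3. The members' median was above that of all genes at each time, most at 0.5 h and least at 3 h, and different members had values at each time. In LT.HSC 3 to 15 of 22 members had a value at a time, with no steady order (0.186% at 0.5 h, 0.0734% at 3 h, 0.500% at 12 h). All genes with a value had 0.0561%, 0.0276% and 0.0221% at these times. Here too the members' median was above that of all genes at each time.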

How the data were processed

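Input levels of the atlas and the Mettl3 set were deposited as a signal, counts divided by a size factor per library, from which all values gave whole reads (tolerance 0.1 read). The authors deposited raw counts for the atlas IP and Igf2bp2 libraries and estimated counts for the Mettl3 IP libraries, which were rounded. New RNA was deposited by the authors as a fraction of T-to-C changes, given here in percent. Build GRCm38 and the tools kallisto, fastp and Trimmomatic appear in the submitters' processing notes, without versions or roles. Inputs were tested as log2(value + 1) with limma 3.58.1 in R 4.3.3, for genes at 10 or more in 2 libraries. IP minus input used TMM scaling within each table and limma, new RNA log2(percent + 0.1) and limma, and IP and Igf2bp2 counts edgeR 4.0.16, with DESeq2 1.42.0 as an alternative. The threshold was a Benjamini-Hochberg adjusted p of 0.05 over all genes tested. Fits were tested on simulated data. RPM and CPM (reads or IP counts scaled to a common total) were computed from all reads of a library. Members, gene lists and the rule for named members were chosen with earlier results of these data known. That rule took the 3 members of each histone type with the highest mean input, the 5 highest and 5 lowest differences per comparison among called members with a mean of at least 50, the 5 highest and 5 lowest in IP minus input, and Hist1h2ab, Hist1h1c, Hist2h2be and Hist1h1t. Others were named after their values were seen.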

Additional observations from a re-analysis of the deposited data

How the results depend on the processing

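Stem and progenitor types against mature leukocytes had 8 members higher and 17 lower. TMM scaling gave 13 higher (6046 of 17030 genes) and leaving out Monocyte 16 (5045 of 16925). Scaling to total reads gave 27 higher (8965 of 17442 genes) and 7 lower (3443). The same scaling gave 4 members higher in LT.HSC (7877 of 17442 genes). In Erythroid it gave 9 higher (1186 genes) and 2 lower (10299). It also reversed 10 gene values. For stem and progenitor types these became 0.00104 (Hist1h1e), 0.049 (Hist1h2bc), 0.83 (Hist2h3b), 0.63 (Hist1h4c), 0.34 (Hist4h4) and 0.19 (Hist1h1d). For Erythroid they became −0.24 (Hist1h2bj), −0.036 (Hist1h4c), −0.20 (Hist2h4) and −0.21 (Hist1h2ac). For IP minus input, 3 members were higher in stem and progenitor types with no filter (721 of 29037 genes) and with total reads (388 of 20138). In LT.HSC 1 was lower with a pseudocount of 10 (1922 of 19732 genes) and 7 with total reads (2522 of 20138). In the Mettl3 input 2 members were lower with a pseudocount of 10 (518 of 15030 genes) and 0 with averaged libraries (0 of 15030). Within single types 1 was lower with a pseudocount of 10 or no filter. In the Mettl3 IP, DESeq2 called 1 higher (694 of 27163 genes) and 1 lower (205). Without the 3 doubtful libraries 2 were higher (196 of 19973 genes). The scaling to total reads, the averaged libraries and the leaving out of Monocyte and doubtful libraries were chosen after seeing the data. The cause of these shifts was not tested. Of 1414 values of named members under other settings, 1315 kept direction and call, 45 gained a call and 44 lost it.

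With a replicate block, 4 members were lower in LT.HSC for IP minus input, in place of 2, and Hist3h2a in the Mettl3 input had a limma adjusted p of 0.00318. The labels do not say that the replicate numbers pair samples. Same-numbered libraries deviated together with a median correlation of 0.003 in the atlas inputs. In the Mettl3 set it was 0.16 for inputs (over 0.1 in 56 of 91 pairs of groups) and 0.0973 for IP (43 of 91). Same-numbered Mettl3 libraries therefore shared some deviations. In knockout inputs 1 and 2, Hist1h2ap had 506 and 2647 RPM in LT.HSC and 1800 and 6068 in MPP, but 626 and 227 in ST.HSC. The main Mettl3 fits treat these libraries as independent.

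Leaving out each library in turn gave 4 to 11 members higher and 14 to 21 lower in stem and progenitor types, 0 to 1 higher and 14 to 34 lower in LT.HSC, 27 to 46 higher and 0 lower in Erythroid, and 59 to 65 differing among types. For IP minus input it gave 3 to 7 higher and 0 to 1 lower in stem and progenitor types, 1 to 4 higher and 1 to 10 lower in LT.HSC, and 13 to 26 among types, the last without IP LMPP 1. In the Mettl3 set it gave 0 to 5 lower in input (5 without knockout GMP 1), 0 to 3 lower within single types (3 without wild-type LT.HSC 2) and 0 to 2 higher in IP (2 without wild-type ST.HSC 1). Igf2bp2, Mettl3 IP minus input and new RNA stayed at 0 calls.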
